A study of Mus musculus with 1 sample.

Results

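Cytokine, interferon and TNF-superfamily receptors were taken as the genes whose symbol in the platform's probe annotation names an interleukin, interferon, CSF or TNF-superfamily receptor, a TGF-beta receptor, an activin receptor or a BMP receptor. The IL-1 receptor antagonist Il1rn, which is a secreted ligand, was left out. The rule found 83 probes of 78 genes, among 20690 named probes of 19321 genes. It used names only and no measured value, although receptors, lists and limits were chosen with earlier results of these data known. The sample was parental RAW264.7, a mouse macrophage-like line that was not mutagenised, grown in RPMI-1640 with 10% fetal calf serum. It is a transformed line, so a primary macrophage may differ from it. The study set such cells against ENU-mutagenised lines that had lost the uptake of peroxiredoxin. Mutant lines were not analysed here, and 1 array of 1 RNA sample gives no spread, no test and no p-value.

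These receptors carry signals from secreted proteins across the plasma membrane. Most interleukin and interferon receptors are pairs of chains, one that binds the ligand and one that is often shared, and they signal through JAK kinases and STAT factors. Receptors of the IL-1 and IL-17 families recruit adaptors such as MyD88 and Act1. TNF-superfamily receptors recruit TRAF proteins or death domain adaptors, and some lack a signalling tail and act as decoys. In the TGF-beta family a type II receptor phosphorylates a type I receptor, which phosphorylates SMAD proteins. In macrophages CSF-1 is the main survival factor, interferon-gamma and TNF promote inflammatory activation, and IL-10 and TGF-beta restrain it.

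A reading here is the median pixel intensity of a spot in arbitrary units, with no background subtracted, and it depends on the probe as well as the transcript. Readings are therefore set against limits and not against each other. The blank limit, 22.98, is the mean plus 2 SD of the empty spots after 5% were left out at each end. The chemosensory limit, 55.8, is the 95th percentile of 1221 probes of olfactory, vomeronasal and taste receptors, of whose 1210 genes 37.3% passed the blank limit. Of 10 macrophage markers, 10 passed the blank limit and 9 the chemosensory limit, among them Spi1 at 858 and Cd68 at 6442, and Mertk at 23.3 was the exception. Of 31 markers of lymphocytes, granulocytes, stroma and epithelium, 16 passed the blank limit and 2 the chemosensory limit. Of 9 T and NK cell markers 4 passed the blank limit, with Cd3d at 30.5 and Cd28 at 35.7, while Cd3e and Zap70, at 20.1 and 19.2, did not. Of 5 B cell markers 3 passed it, with Cd79a at 28.9 and Cd79b at 29.2, while Pax5 at 19.6 did not. The markers of T, NK and B cells had 0 genes over the chemosensory limit. Of 8 granulocyte and mast cell markers 5 passed the blank limit. S100a8 and Ly6g, markers of granulocytes, read 60.2 and 66.7 and were the 2 over the chemosensory limit. S100a9, Mpo and Fcer1a, at 19.4, 18.6 and 19.2, did not pass the blank limit.

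Of the 78 receptor genes, 54 passed the blank limit, or 69.2%, against 72.8% of all named genes. The chemosensory limit was passed by 25, or 32.1%, against 42.7% of all named genes. A further 29 lay between the limits and 24 were not over the blank limit. The median receptor gene read 30.7, and the median of all named genes was 40.1. The receptors ranged from Il31ra at 18.1 to Csf1r at 642. Of the 46 interleukin, CSF and interferon receptors 16 passed the chemosensory limit, of the 20 TNF receptors 5, and of the 12 TGF-beta family receptors 4. The shares of all named genes, 72.8% and 42.7%, also apply to the group counts below. The 99th percentile of the chemosensory probes, 146, was passed by 13 receptors, or 16.7%, against 27.5% of all named genes. The 12 of the 25 that lay under it were Acvr1, Acvr2b, Csf3r, Ifnar1, Ifnar2, Il13ra1, Il15ra, Il17rc, Tnfrsf1a, Tnfrsf1b, Tnfrsf23 and Tnfrsf26. The annotation ties the probes of 3 of them, Csf3r, Il15ra and Tnfrsf23, to non-coding transcripts of these genes.

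**Figure D1:**
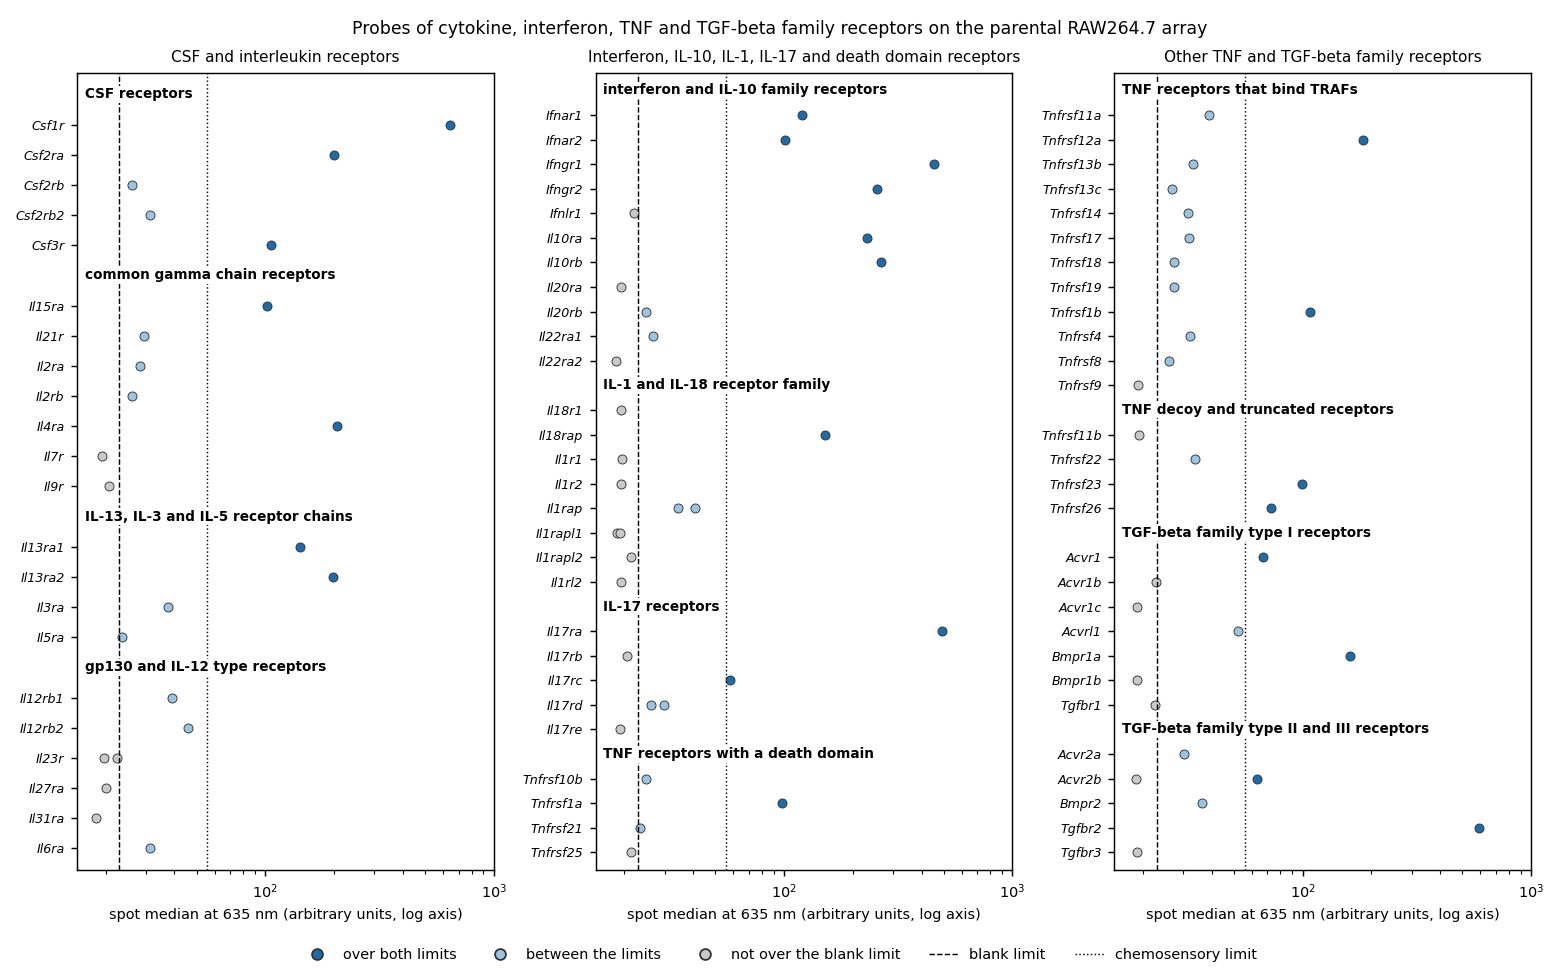
Spot median (arbitrary units, log axis) of each of the 83 receptor probes on the parental array, 1 point a probe and 1 line a gene, grouped by role. The dashed line is the blank limit of 22.98 and the dotted line the chemosensory limit of 55.8, and 25 genes have a probe to the right of the dotted line.

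Of the 63 receptor genes with a promoter window in the RefSeq table, 6 are printed, as pairs that serve the same ligand. These pairs were chosen during the work. Each window runs from 250 bases before to 50 bases after the gene's start, 5′ to 3′ on the gene's strand, in build GRCm38.p6. The first pair is Il18rap and Il18r1, chains of the IL-18 receptor, which lie beside each other and read 151 and 19.4. Capitals mark GAGGAAGT, bound by the myeloid factor PU.1, in Il18rap (chr1:40515112-40515411, plus strand) and TTCNNNGAA, bound by STAT factors, in Il18r1 (chr1:40465756-40466055, plus strand). GAGGAAGT was in 3.17% of receptor windows against 3.28% of all named genes, and TTCNNNGAA in 22.2% against 8.99%. Whether either motif bears on the readings was not tested.
Il18rap: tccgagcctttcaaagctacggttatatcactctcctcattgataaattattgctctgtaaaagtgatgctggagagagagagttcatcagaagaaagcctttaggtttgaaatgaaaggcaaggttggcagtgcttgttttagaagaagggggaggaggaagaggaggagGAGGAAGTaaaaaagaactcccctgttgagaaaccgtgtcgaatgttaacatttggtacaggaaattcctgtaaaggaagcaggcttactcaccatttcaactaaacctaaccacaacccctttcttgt
Il18r1: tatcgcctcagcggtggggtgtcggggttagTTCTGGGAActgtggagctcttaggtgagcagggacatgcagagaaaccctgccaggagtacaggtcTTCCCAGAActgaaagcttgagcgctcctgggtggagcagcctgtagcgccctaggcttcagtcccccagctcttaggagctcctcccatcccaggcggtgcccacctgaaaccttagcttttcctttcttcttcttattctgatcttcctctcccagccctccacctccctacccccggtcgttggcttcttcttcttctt

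The 2 chains of the type I interferon receptor both passed the chemosensory limit, and both windows hold TTCNNNGAA, again in capitals. Ifnar1 lies at chr16:91484965-91485264 and Ifnar2 at chr16:91372533-91372832, both on the plus strand.
Ifnar1: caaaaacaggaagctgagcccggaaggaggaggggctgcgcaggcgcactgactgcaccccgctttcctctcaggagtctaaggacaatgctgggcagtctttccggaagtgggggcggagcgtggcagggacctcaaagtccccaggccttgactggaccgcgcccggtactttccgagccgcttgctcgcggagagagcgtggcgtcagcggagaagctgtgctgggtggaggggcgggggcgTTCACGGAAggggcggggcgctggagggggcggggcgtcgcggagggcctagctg
Ifnar2: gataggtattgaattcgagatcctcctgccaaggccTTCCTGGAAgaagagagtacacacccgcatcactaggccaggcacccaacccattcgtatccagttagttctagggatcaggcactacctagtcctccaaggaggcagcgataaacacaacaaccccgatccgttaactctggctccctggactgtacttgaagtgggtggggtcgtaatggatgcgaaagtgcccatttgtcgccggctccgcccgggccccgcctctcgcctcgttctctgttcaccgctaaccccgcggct

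Il13ra1 and Il13ra2 encode the signalling and the decoy receptor for IL-13, and both passed the chemosensory limit. Their windows differ in CpG dinucleotides, which are in capitals. Il13ra1 (chrX:36111858-36112157, plus strand) holds 28 and Il13ra2 (chrX:147429143-147429442, minus strand) holds 1.
Il13ra1: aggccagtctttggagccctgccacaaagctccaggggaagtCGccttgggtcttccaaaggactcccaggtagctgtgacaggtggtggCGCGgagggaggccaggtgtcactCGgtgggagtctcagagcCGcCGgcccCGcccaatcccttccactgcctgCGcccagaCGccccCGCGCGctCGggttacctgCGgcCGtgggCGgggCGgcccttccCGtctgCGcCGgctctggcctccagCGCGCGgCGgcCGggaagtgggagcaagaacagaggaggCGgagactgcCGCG
Il13ra2: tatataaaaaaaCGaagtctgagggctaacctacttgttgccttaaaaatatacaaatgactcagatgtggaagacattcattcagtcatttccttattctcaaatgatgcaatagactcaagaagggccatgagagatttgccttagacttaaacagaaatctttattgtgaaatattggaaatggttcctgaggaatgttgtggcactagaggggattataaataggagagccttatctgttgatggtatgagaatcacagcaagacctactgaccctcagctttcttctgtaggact

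All 5 receptors for colony-stimulating factors passed the blank limit and 3 passed the chemosensory limit. Csf1r (probe M300004245), the tyrosine kinase receptor for CSF-1 and IL-34, read 642, or 11.5 times the chemosensory limit. That is 3.96 times its local background of 162. Csf2ra (probe M300013450), the ligand-binding chain for GM-CSF, read 199. Csf3r (probe M200014855), the G-CSF receptor of the granulocyte lineage, read 105, or 1.83 times its local background of 57.6. The annotation ties that probe to a non-coding transcript, and the reading lay under the 99th percentile of the chemosensory probes, 146. Thus a chain that binds each of the 3 factors passed the chemosensory limit, for G-CSF with the limits just given. The shared signalling chain Csf2rb and its close paralog Csf2rb2, which in the mouse serves IL-3, lay between the limits at 26.1 and 31.4. Whether either probe also binds the other transcript was not tested, so these 2 readings are uncertain, and neither passed the blank limit once the local background was subtracted.

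Receptors that use the common gamma chain had 5 of 7 genes over the blank limit and 2 over the chemosensory limit. Il4ra (probe M200000370), which binds IL-4, read 206, and Il15ra (probe M200012863), which presents IL-15, read 101. Il21r, Il2ra and Il2rb lay between the limits at 29.4, 28.2 and 26.2. The lymphoid receptors Il7r and Il9r, at 19.4 and 20.6, did not pass the blank limit. The shared chain itself, Il2rg, had no named probe. Il13ra1 (probe M200004826) read 141 and Il13ra2 (probe M400001355) read 198, so the decoy and the signalling chain for IL-13 were both over the chemosensory limit. Il3ra and Il5ra, which bind IL-3 and IL-5, lay between the limits at 37.4 and 23.5, and Il5ra was 1.02 times the blank limit.

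In the group of gp130 and IL-12 type receptors, 0 of 6 genes passed the chemosensory limit and 3 passed the blank limit. Il6ra, the IL-6 binding chain, read 31.2, Il12rb1 read 39.0 and Il12rb2 read 46.0. Il27ra read 20.02, Il31ra read 18.1, and the 2 probes of Il23r read 22.4 and 19.7, none of them over the blank limit. The rule leaves out gp130 itself, Il6st, which read 128. Thus gp130 passed the chemosensory limit, while Il6ra and Il27ra, its listed partners measured here, did not. Il6st itself lay under the 99th percentile of the chemosensory probes, 146.

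Interferon and IL-10 family receptors included 3 pairs in which both chains passed the chemosensory limit. Ifngr1 (probe M200000196) and Ifngr2 (probe M200013411), the chains for interferon-gamma, read 454 and 255. Ifnar1 (probe M200000185) and Ifnar2 (probe M200002439), the chains for type I interferons, read 119 and 101. Il10ra (probe M300008066) and Il10rb (probe M200001616), the chains for IL-10, read 230 and 266. These 6 were the members of the group of 11 over the chemosensory limit. Il10rb is also a chain of the receptors for IL-22 and interferon-lambda, whose own binding chains Il22ra1 and Ifnlr1 read 26.8 and 22.1. Il22ra1 lay over the blank limit and Ifnlr1 under it, but Il22ra1 was no longer over it after local background subtraction, and Ifnlr1 passed with a limit of 1 SD. The epithelial IL-20 receptor chains Il20ra and Il20rb read 19.4 and 24.98, and the soluble IL-22 binding protein Il22ra2 read 18.3.

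The IL-1 and IL-18 receptor family was the group with the fewest genes over the blank limit as a share, 2 of 8. Il18rap (probe M200003918), the accessory chain for IL-18, read 151, whereas Il18r1, the chain that binds IL-18, read 19.4. The accessory chain Il1rap read 34.5 and 40.6 on its 2 probes, between the limits, whereas the IL-1 receptor Il1r1 read 19.5 and the decoy Il1r2 read 19.4. The IL-36 receptor Il1rl2, at 19.3, and the mainly neuronal Il1rapl1 and Il1rapl2, at 18.6 to 21.4, did not pass the blank limit either. Both accessory chains thus passed a limit that the binding chains did not. The IL-33 receptor Il1rl1 had no named probe.

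Among IL-17 receptors, Il17ra (probe M200001766), the chain common to the family, read 493 and Il17rc (probe M200007303), its partner for IL-17A and IL-17F, read 57.9, which is 1.04 times the chemosensory limit. Il17rd, known as a regulator of FGF signalling, read 26.2 and 29.8 on its 2 probes. The partners for IL-25 and IL-17C, Il17rb and Il17re, read 20.5 and 19.2 and did not pass the blank limit.

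TNF-superfamily receptors were mostly between the limits. Of 20, 17 passed the blank limit, or 85%, against 72.8% of all named genes. The chemosensory limit was passed by 5, or 25%, against 42.7% of all named genes. Both receptors for TNF were among the 5, with Tnfrsf1a (probe M200000469), the TNFR1 that carries a death domain, at 97.5 and Tnfrsf1b (probe M200001018), the TNFR2 that binds TRAF2, at 108. Tnfrsf12a (probe M200006044), which encodes the TWEAK receptor Fn14, read 183. The other 2 were Tnfrsf23 (probe M200009953) at 99.2, a mouse decoy receptor for TRAIL, and its neighbour Tnfrsf26 (probe M300016323) at 72.4. The third gene of that cluster, Tnfrsf22, lay between the limits at 33.9. Tnfrsf26 was 1.36 times its local background and did not pass the chemosensory limit when that background was subtracted from every spot and the limit computed again.

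Of the other death domain receptors, the TRAIL receptor Tnfrsf10b read 24.8, Tnfrsf21, known as DR6, read 23.4, and Tnfrsf25, known as DR3, read 21.5. The first 2 passed the blank limit by little, at 1.08 and 1.02 times, and Tnfrsf25 did not. Tnfrsf11a, the receptor RANK through which RAW264.7 cells are known to form osteoclasts, read 39.1, between the limits, and the soluble decoy of its ligand, Tnfrsf11b, read 19.3. The receptors known mainly from B cells, Tnfrsf13b, Tnfrsf13c and Tnfrsf17, read 33.0, 26.9 and 31.7. The T cell costimulatory receptors Tnfrsf4 and Tnfrsf18 read 32.1 and 27.5, and Tnfrsf9, known as 4-1BB, read 19.1. Those of B cells, Tnfrsf4 and Tnfrsf18 were therefore between the limits, the range that also holds 390 of the 1210 chemosensory genes. Tnfrsf8, Tnfrsf14 and Tnfrsf19 read 26.1, 31.5 and 27.5.

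In the TGF-beta family, the type II and type I receptors of TGF-beta itself fell on different sides of the limits, while those listed for BMP-9, Acvrl1 and Bmpr2, both lay between them. Tgfbr2 (probe M200004708), the type II receptor that binds TGF-beta, read 592, or 10.6 times the chemosensory limit. Tgfbr1, the type I kinase it activates, read 22.6, which is 0.985 times the blank limit. With the limit taken from the negative control spots, 22.64, Tgfbr1 passed. Bmpr1a (probe M200009327), a type I receptor for BMPs, read 162 and Acvr1 (probe M200000246), also called ALK2, read 66.8. Acvrl1, the endothelial ALK1, lay between the limits at 52.3, and the activin type I receptor Acvr1b read 22.9, which is 0.996 times the blank limit. So 2 of the 7 type I receptors passed the chemosensory limit. Acvr1c at 18.9, Bmpr1b at 18.8 and the co-receptor Tgfbr3 at 18.8 did not pass the blank limit either. Bmpr2 and Acvr2a, type II receptors for BMPs and activins, lay between the limits at 36.3 and 30.1. Acvr2b was the 1 receptor whose probes disagreed, at 63.1 on probe M200002755 and 18.6 on probe M400014324, although the annotation ties both to the same transcript.

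**Figure D2:**
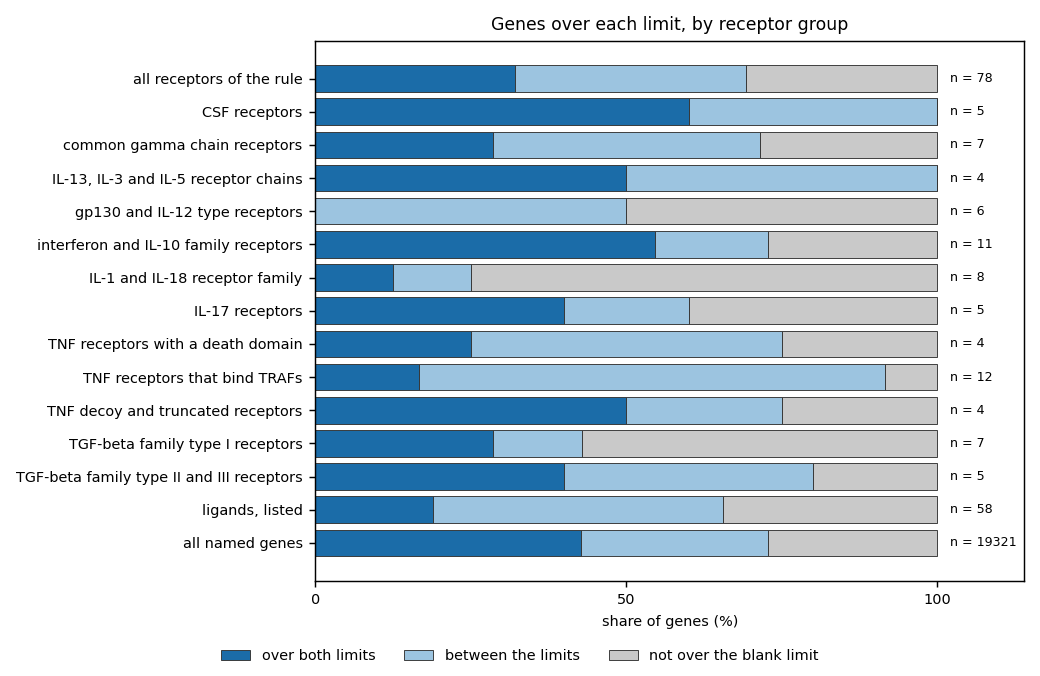
Share of genes (%) over both limits, between them and not over the blank limit, for all 78 receptors, their 12 role groups, the 58 listed ligands and all 19321 named genes on the parental array. The over-both share is 32.1% for the receptors and 42.7% for all named genes, and it is 0 of 6 in the gp130 and IL-12 group.

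Because most of these receptors work as complexes, 37 complexes were listed from textbook knowledge, and 29 had a named probe for every chain. Of all named genes, taken singly, 72.8% passed the blank limit and 42.7% the chemosensory limit. How often unrelated genes would pass together was not tested. All chains passed the chemosensory limit in 7 complexes. CSF-1 and G-CSF receptors are single chains, and the G-CSF call rests on the Csf3r probe tied to a non-coding transcript. The other 5 were pairs, among 27 measured complexes of more than 1 chain. These pairs were those for IL-4 and IL-13 of type II, type I interferon, interferon-gamma, IL-10, and IL-17A with IL-17F. In 9 more, among them GM-CSF, IL-6, IL-12 and BMP, all chains passed the blank limit. In 13 at least 1 chain did not pass the blank limit, and in 7 of those the other chain was over the chemosensory limit. These 7 were the complexes for TSLP, IL-27, type III interferon, IL-18, IL-25, IL-17C and TGF-beta. At the 99th percentile of the chemosensory probes, the complexes with all chains over it numbered 3, for CSF-1, interferon-gamma and IL-10. Of all named genes, taken singly, 27.5% passed it.

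**Figure D3:**
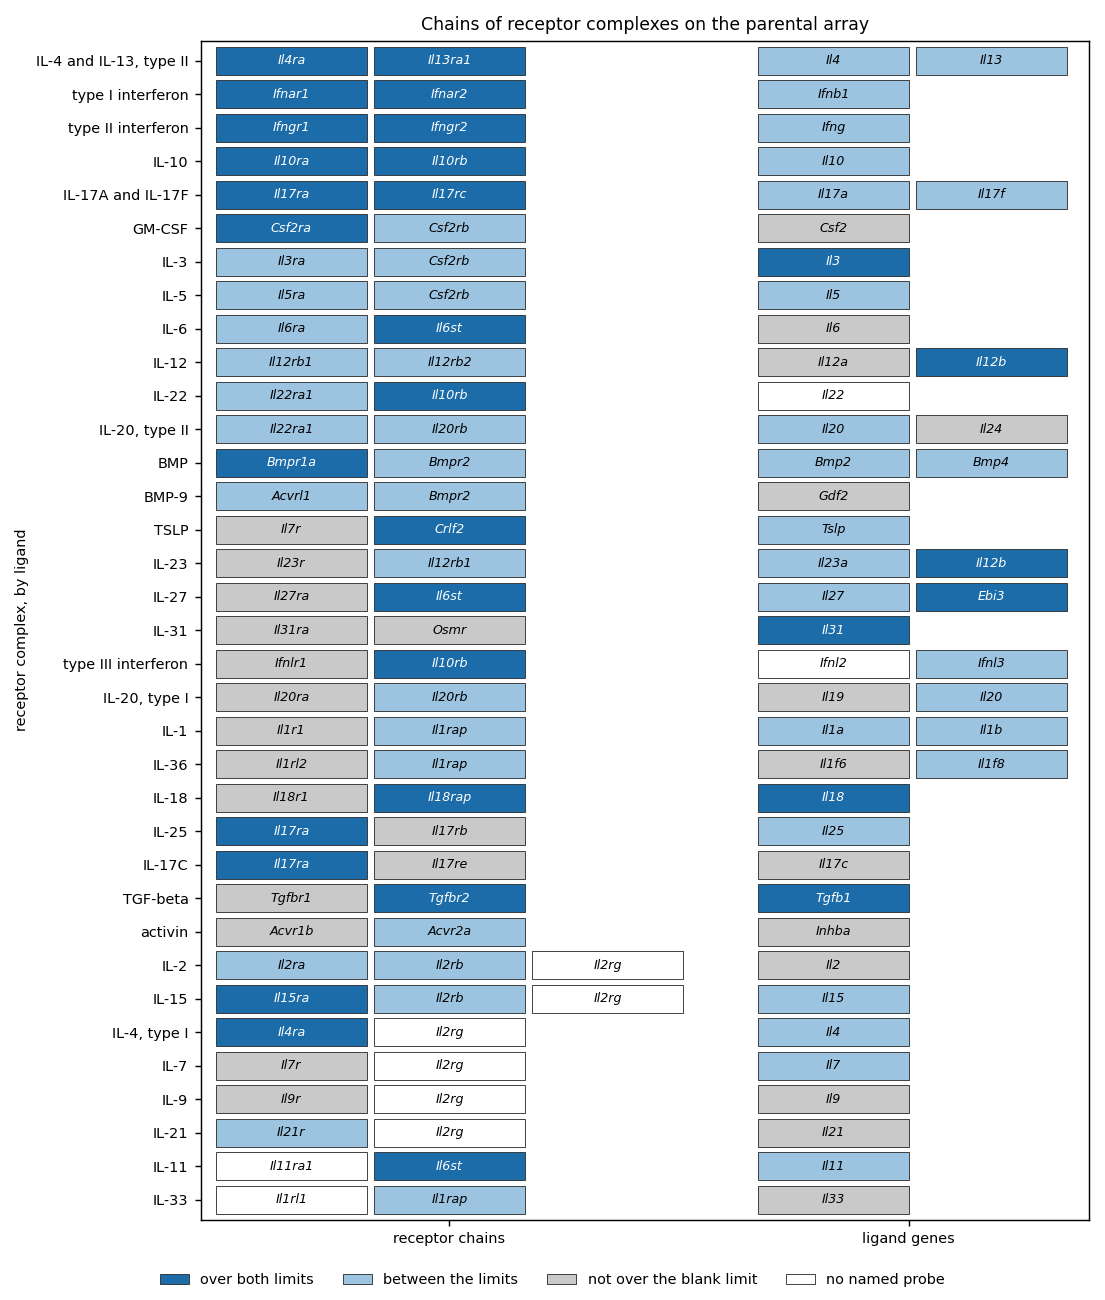
Each line is a receptor complex of more than 1 chain, with a box for each chain and, at the right, for each ligand gene, coloured by its class on the parental array. The 5 lines at the top have every chain over both limits, and white boxes have no named probe.

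Of 58 measured ligand genes, 38 passed the blank limit, or 65.5%, against 72.8% of all named genes. The chemosensory limit was passed by 11, or 19.0%, against 42.7% of all named genes. The 99th percentile of the chemosensory probes was passed by 9, or 15.5%, against 27.5% of all named genes. In the listed complexes, Csf1 was the 1 ligand over the chemosensory limit, at 642, whose whole receptor was over it too. Tnf read 385, and both TNF receptors, which are not among the listed complexes, were over that limit as well. Tgfb1 at 153 and Il18 at 399 were over that limit while Tgfbr1 and Il18r1 were not over the blank limit. Ltb at 692, Tnfsf9 at 574, Il12b at 559 and Il31 at 261 were also over the chemosensory limit. So were Il3 at 175, Bmp6 at 129 and Tnfsf13b at 74.3. Il10 at 34.4, Ifnb1 at 27.6 and Ifng at 23.6 lay between the limits, beside receptor pairs that were over both. Tnfsf11, which encodes the RANK ligand, read 38.3, Tnfsf12, which encodes TWEAK, read 48.9, and the TRAIL gene Tnfsf10 read 20.8.

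Genes of the JAK, STAT, adaptor and SMAD lists, which include inhibitors of the signal such as Smad6 and Irak3, were read at the same limits. Of all named genes, 42.7% passed the chemosensory limit. Of 10 measured JAK and STAT genes, 8 passed it, with Jak1 at 469, Jak2 at 171, Stat3 at 150 on its higher probe and Stat6 at 138. Stat5a and Stat4 lay between the limits at 44.2 and 25.7. Of 10 TRAF and death domain adaptors 8 passed, among them Tradd at 327 and Traf2 at 269, and of 9 adaptors of IL-1 and IL-17 receptors 8 passed, with Myd88 at 926. The count was 3 of 8 for SMADs, and the inhibitory Smad6 at 58.1 was among the 3. At the 99th percentile of the chemosensory probes, 4 of 10 JAK and STAT genes, 2 of 10 TRAF and death domain adaptors, 4 of 9 IL-1 and IL-17 receptor adaptors and 2 of 8 SMADs remained over the limit, against 27.5% of all named genes. Smad2 read 375 and 64.9 on its 2 probes and the common partner Smad4 read 328, whereas Smad3 at 21.5 and Smad9 at 18.2 did not pass the blank limit.

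Of 20 inhibitors and soluble binders, 18 passed the blank limit, or 90%, and 10 the chemosensory limit, or 50%. The shares of all named genes were 72.8% and 42.7%. At the 99th percentile of the chemosensory probes 7 of the 20 remained, or 35%, against 27.5% of all named genes. The phosphatase Ptpn6, known as SHP-1, read 1424 and the feedback inhibitor Socs3 read 376, while Socs1 lay between the limits at 33.5. Il1rn read 52.4, between the limits, and the IL-18 binding protein Il18bp read 20.5. Of 21 related receptors that the rule does not name, 15 passed the blank limit, or 71.4%, and 8 the chemosensory limit, or 38.1%. At the 99th percentile 1 of these 21 remained, or 4.76%, against 27.5% of all named genes. Crlf2, the TSLP receptor chain, read 434 and 66.2 on its 2 probes, the lymphotoxin receptor Ltbr 101, Fas 63.8 and Cd40 59.6. The stem cell receptors Kit and Flt3 read 18.3 and 19.2.

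The scanner's local background gave a further view of the same spots. The 25 receptor probes over the chemosensory limit had a median of 2.86 times their local background, and the 8537 named probes over it had 2.94 times. Between the limits the medians were 1.35 times for receptors and 1.37 times for all named probes, and under the blank limit 1.08 and 1.09 times. Il10rb at 9.53 times and Tgfbr2 at 8.14 times stood clearest of their surroundings, followed by Il13ra2 at 6.39 and Csf2ra at 5.19 times. Il17ra was 1.64 times and Csf3r 1.83 times their local backgrounds of 301 and 57.6, and Ifngr2 was 2.07 times its own. The local background alone was over the chemosensory limit of 55.8 for Il17ra, Ifngr1, Csf1r, Ifngr2, Tnfrsf12a, Tgfbr2, Il4ra, Bmpr1a, Csf3r and Il10ra. Among these receptors it ran from 56.3 for Il10ra to 301 for Il17ra. Spots over the chemosensory limit thus differed in how far they stood above their surroundings, and what raised the background was not tested.

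Many of these genes lie beside each other. With at most 1 other protein-coding gene between them in the RefSeq order of GRCm38.p6, 35 of the 78 fell into 14 runs. Ifnar2, Il10rb, Ifnar1 and Ifngr2 form a run in which all 4 passed the chemosensory limit. In the run Il1r2, Il1r1, Il1rl2, Il18r1 and Il18rap, Il18rap alone passed either limit. Ifngr1 read 454 beside Il22ra2 and Il20ra, which were not over the blank limit, and Tnfrsf1b read 108 beside Tnfrsf8 at 26.1. Neighbouring receptors therefore shared a class in some runs and not in others.

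Promoter windows were matched for 63 of the 78 receptors, from the RefSeq table in build GRCm38.p6. The ratio of observed to expected CpG had a median of 0.66 in the 20 receptors over the chemosensory limit, 0.44 in the 23 between the limits and 0.46 in the 20 not over the blank limit. Over all named genes with a window the medians were 0.80, 0.54 and 0.33 in the same classes. A ratio over 0.6 was found in 12 of the 20 receptors over the chemosensory limit, or 60.0%, against 78.7% of all named genes over it. Il13ra2, Csf3r, Il18rap and Il17rc were over the chemosensory limit with ratios of 0.095, 0.33, 0.31 and 0.27. Tgfbr1, Acvr1b and Il17rb were not over the blank limit with ratios of 0.89, 1.09 and 0.82. Where a gene had several windows, the one with the most CpG was used.

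Motifs were searched on both strands and apart from each other, so matches may overlap. The STAT motif TTCNNNGAA was in the windows of 14 of 63 receptors, or 22.2%, against 8.99% of the 15113 named genes with a window. Among the 14, Ifnar1, Ifnar2, Tnfrsf1a and Tnfrsf1b passed the chemosensory limit, and Il7r, Il1r2, Il18r1, Il31ra, Tnfrsf9 and Tnfrsf25 did not pass the blank limit. The PU.1 motif GAGGAAGT was in 2 receptor windows, those of Il18rap and Csf2rb2, or 3.17%, against 3.28% of all. The AP-1 motif TGACTCA was in 7, or 11.1%, against 5.35%, among them Il13ra2 and Il15ra. A match is a run of letters and does not show binding, and the difference in shares was not tested.

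**Figure D4:**
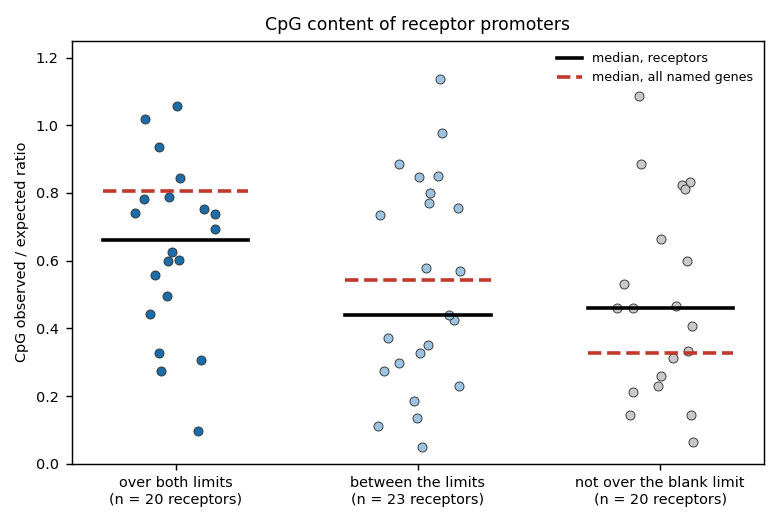
Ratio of observed to expected CpG in the promoter windows of 63 receptors, 1 point a gene, by class on the parental array. Solid lines are medians of the receptors (0.66, 0.44 and 0.46) and dashed lines medians of all named genes of the same class (0.80, 0.54 and 0.33), and points are spread sideways at random.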

How the data were processed

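Per the labels' protocols, total RNA of the parental cells was amplified to amino allyl RNA, coupled to a Cy dye, here Cy5, and fragmented as the array maker Toray describes. The deposited scanner file holds, per the file headers, spot and local background median intensity at 635 nm from a scan at 3 gains. The authors' deposited table of processed intensity follows the spot median minus the trimmed blank mean, scaled by about 0.486. That was found from its values, and its scale is not stated. It is empty for 27 receptor probes, which are those not over the blank limit.

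Spots of 1 probe were averaged and a gene took its highest probe. Blanks numbered 2736, of which 2464 were used (mean 20.6, SD 1.18). Symbols came from the platform annotation, and 20556 of 20690 named probes matched the RefSeq gene table of GRCm38.p6. No build is named for the probes. All receptors may be named by the rule. Those over the chemosensory limit or with probes on different sides of a limit are given by probe, and the rest by their readings. Receptors, lists and limits were chosen with earlier results of these data known, and motifs and the windows printed were chosen during the work. Normexp correction used limma 3.58.1 in R 4.3.3, and other steps Python 3.11.15, pandas 2.3.3 and numpy 2.4.6. Calls were tested on simulated data. The 14 alternatives changed the blank limit (SDs, trimming, percentile, negative controls, own block), the background (subtracted, or normexp with offset 50), the source (the authors' table), the probe rule, the chemosensory percentile and the symbols.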

Additional observations from a re-analysis of the deposited data

How the results depend on the processing

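The call of a receptor over the chemosensory limit depended most on which percentile of the chemosensory probes was taken. At the 99th percentile, 146, the receptors over it numbered 13 in place of 25, or 16.7%, against 27.5% of all named genes. Complexes with all chains over it numbered 3 in place of 7, and genes of the pathway lists 29 in place of 55 of 135. At the 90th percentile, 40.8, receptors numbered 27. Under the other alternatives they numbered 24 or 25. Those that change the blank limit alone leave the chemosensory limit as it is, so they could not move this count. Over the blank limit lay 44 receptors after local background subtraction or normexp and 58 with 1 SD, around 54 in the analysis as reported, and complexes with all chains over it ran between 11 and 20, around 16. Of the 54 receptors over the blank limit 42 kept that call in all 14 alternatives, and 20 of the 24 others did. Several of the 14 could not change it. The chemosensory percentiles and the updated symbols leave the blank limit as it is. The authors' table is empty for just the receptor probes not over that limit, so it repeats the call. Tgfbr1 and Acvr1b passed with 1 SD and with the negative controls, Il23r and Ifnlr1 with 1 SD, and Acvr1b and Il23r with the blanks of their own block. Acvr2a, Csf2rb, Csf2rb2, Il20rb, Il22ra1, Il2rb, Tnfrsf18, Tnfrsf21, Tnfrsf22 and Tnfrsf8 lost the blank call with local background subtraction and with normexp. Il5ra and Tnfrsf21 lost it with 3 SD, the 99th percentile of the blanks or no trimming, and Acvr2b with its lowest probe. A raised limit must call fewer genes, and the cause of the shift with local background was not tested. The number of arrays, 1, limits the precision.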
